A study of Mus musculus with 6 samples.

Results

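The genes described here are 10 members of the Janus kinase (JAK) and signal transducer and activator of transcription (STAT) pathway, chosen by name. They are the kinases Jak1 and Jak2, the transcription factors Stat2, Stat3, Stat5a and Stat6, and the feedback inhibitors Socs1, Socs2, Socs3 and Cish. The choice was made with earlier results of these data known, so counts among the 10 are no independent support. All 10 were found among 22180 mouse genes that had a probe set annotated to 1 gene symbol, and together they had 13 of the 41345 probe sets on the array. They were measured in cultured prostate epithelial cancer cells from Rb1F/F:Trp53F/F:PB-Cre4 mice, in which the PB-Cre4 transgene, a Cre recombinase driven by the prostate-specific probasin promoter, acts on floxed Rb1 and Trp53. The 3 PIM1 samples carried a lentivirus for the serine/threonine kinase PIM1 and the 3 EV samples carried an empty-vector lentivirus. Both groups therefore share the Rb1 and Trp53 background and a growth medium with epidermal growth factor, insulin and cholera toxin. No source used here gives the age of the mice or the number of animals, cell lines or separate transductions behind the 6 samples. The tests therefore gauge variation among these 6 samples alone, part of which could be technical. Total RNA was hybridised to 1 Affymetrix whole-transcript array per sample, and values are the authors' log2 signals, in which a difference of 1 is a doubling.

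JAKs are tyrosine kinases bound to the inner part of cytokine receptors. When a cytokine brings the receptor chains together, the JAKs phosphorylate the receptor and the STAT proteins that dock on it, and the STATs pair, enter the nucleus and bind DNA. Among the genes they switch on are those of the SOCS family, including Cish, whose proteins bind the receptors or the kinases and damp the signal. PIM kinase genes are themselves classical STAT3 and STAT5 targets, and PIM1 is widely expressed in prostate cancer. RNA signals such as these show how much message was present and do not measure phosphorylation of any STAT.

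The median over all probe sets was 3.38 to 3.42 on the PIM1 arrays and 3.49 to 3.52 on the EV arrays, and signals near or below this level hold an unknown share of background, since no detection call was used. Arrays correlated at 0.994 to 0.996 within PIM1, 0.990 to 0.991 within EV and 0.963 to 0.967 between the groups. The signal of mouse Pim1 was 7.11, 6.89 and 6.97 on the PIM1 arrays and 5.26, 6.25 and 5.23 on the EV arrays (difference 1.41, limma adjusted p = 0.00455), and the labels do not say whether its probes detect the introduced sequence. The epithelial marker Epcam was low in both groups, at 2.35 in PIM1 and 2.50 in EV, whereas the luminal keratin Krt18 was at 4.90 in PIM1 and 9.14 in EV. The basal keratin Krt14 was low as well, at 2.55 in PIM1 and 2.98 in EV. Of 10 luminal epithelial markers 7 lay above the array medians in both groups, Krt8 (4.65 in PIM1 and 4.73 in EV) and Hoxb13 (5.57 in PIM1 and 4.99 in EV) among them. Of 11 basal markers 5 did, and of 12 fibroblast markers 10 did. The median level of the fibroblast markers was 9.40 in PIM1 and 6.68 in EV, against 4.29 and 4.51 for the luminal markers. The median over the genes tested was 3.98 to 4.03 per array, so most genes on an array exceed its probe set median.

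Of the 10 genes, 7 were higher in PIM1 than in EV cells at adjusted p under 0.05 in limma and 0 were lower. At an unadjusted p under 0.05 the counts were 8 and 0. The 7 were Jak2, Stat2, Stat3, Stat5a, Stat6, Socs2 and Socs3, with differences between 1.32 and 2.59 on the log2 scale. Jak1, Socs1 and Cish did not pass. By role, 1 of 2 kinases, 4 of 4 STATs and 2 of 4 feedback inhibitors rose. Over all 22180 genes the same test (limma, Benjamini-Hochberg adjustment) called 27.0%, of which 16.1% of all genes were higher and 10.9% lower in PIM1. The median difference of the 10 genes was 1.56, against -0.05 over all genes tested. For 9 of the 10 genes every PIM1 signal exceeded every EV signal. The 2 groups lay fully apart, in either direction, for 43.2% of all genes. With the arrays centred on their medians, 73.5% of all called genes were higher in PIM1, against 59.6% without centring, and 8 of the 10 genes were called, all higher.

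**Figure D1:**
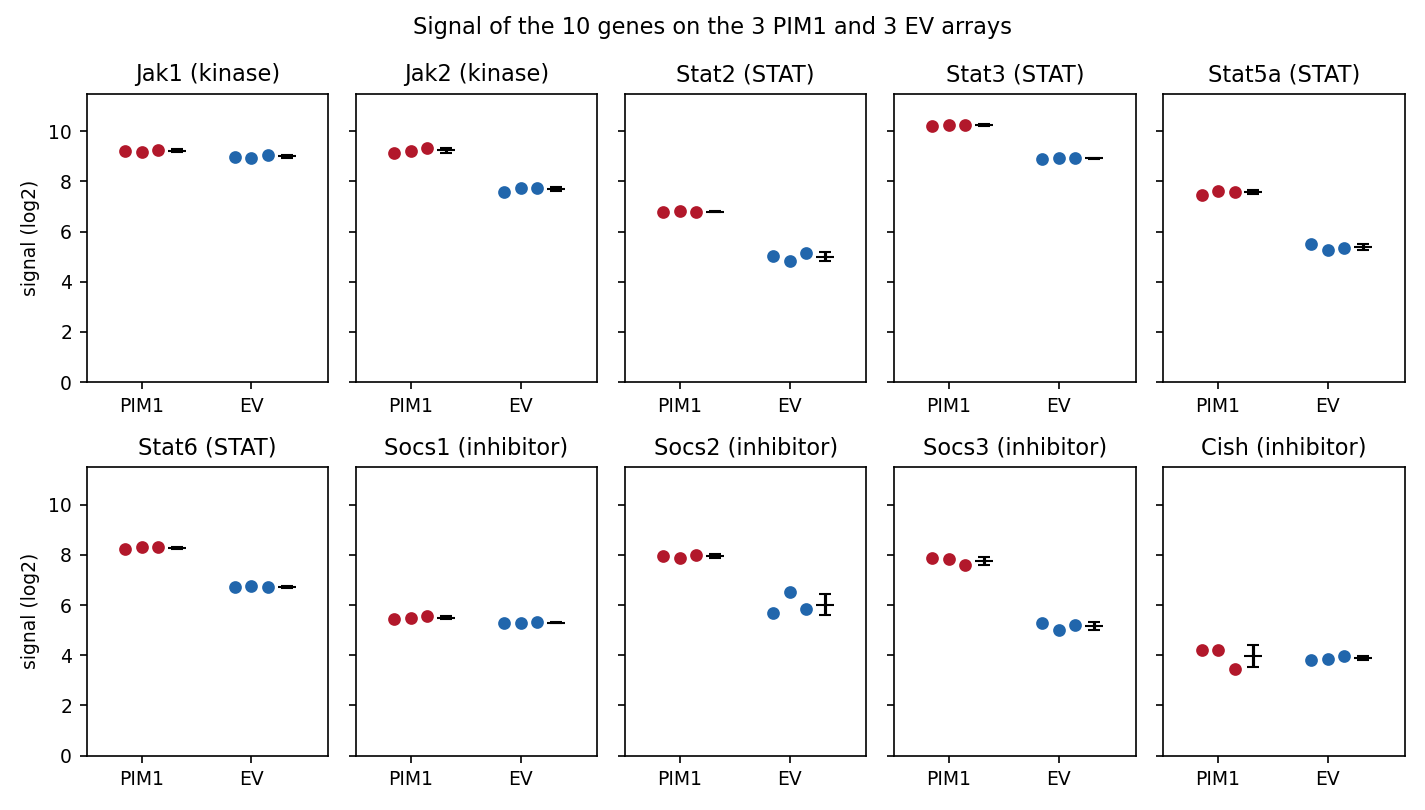
Log2 signal (vertical axis) of each of the 10 genes on the 3 PIM1 arrays (red) and the 3 EV arrays (blue), with the mean and SD of each group in black. The PIM1 points lie above all EV points in every panel but that of Cish, and the gap is narrow for Jak1 and Socs1.

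The kinases differed from each other. Jak2, which serves homodimeric receptors such as those for growth hormone and prolactin and also the interferon gamma and gp130 receptors, had signals of 9.15, 9.21 and 9.34 in PIM1, against 7.59, 7.73 and 7.72 in EV. Every PIM1 array was more than a full log2 unit above every EV array. The Jak2 difference was 1.55 (standard error 0.102, adjusted p = 2.11e-05), a 2.93-fold rise. Jak1, the partner kinase at gp130, interferon and common gamma chain receptors, had signals of 9.23, 9.16 and 9.27 in PIM1 and 8.97, 8.95 and 9.07 in EV. The Jak1 groups did not overlap, but the difference was only 0.22 (95% confidence interval 0.0043 to 0.44) and was not called (adjusted p = 0.124). Jak1 passed with a trended and robust variance (adjusted p = 0.0182), after median centring (difference 0.32, adjusted p = 0.0456) and when only the 11090 brighter genes were tested (adjusted p = 0.0481). A Jak1 change of 1.55, the size seen for Jak2, lies outside the Jak1 interval.

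All 4 STAT genes rose, and no PIM1 array overlapped an EV array for any of them. Stat5a, which acts downstream of prolactin, growth hormone and other cytokines, rose most among them, with signals of 7.47, 7.63 and 7.57 in PIM1 against 5.52, 5.28 and 5.33 in EV. Its difference was 2.18 (standard error 0.107, adjusted p = 4.65e-06), which is 4.53-fold. Only 1.16% of all genes tested had a larger difference in either direction than Stat5a. Stat2, a subunit of the interferon-activated complex ISGF3, had signals of 6.79, 6.81 and 6.76 in PIM1, against 5.01, 4.81 and 5.16 in EV. The Stat2 difference was 1.80 (standard error 0.114, adjusted p = 1.71e-05), or 3.47-fold. Its PIM1 arrays lay within 0.0498 of each other and its EV arrays spread over 0.351.

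Stat6, the factor of interleukin-4 and interleukin-13 signalling, read 8.23, 8.32 and 8.29 in PIM1 and 6.70, 6.75 and 6.71 in EV. Replicates of Stat6 were tight in both groups, and the difference was 1.56 (standard error 0.0910, adjusted p = 1.06e-05), a 2.95-fold rise. Stat3, the acute-phase factor activated through gp130, read 10.20, 10.25 and 10.26 in PIM1 and 8.90, 8.93 and 8.94 in EV. Stat3 had the smallest difference of the 4 STATs, 1.32 (standard error 0.0898, adjusted p = 2.47e-05), a 2.49-fold rise. Its SD was 0.031 in PIM1 and 0.021 in EV (n = 3 each), so the difference was many times the spread between replicates.

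**Figure D2:**
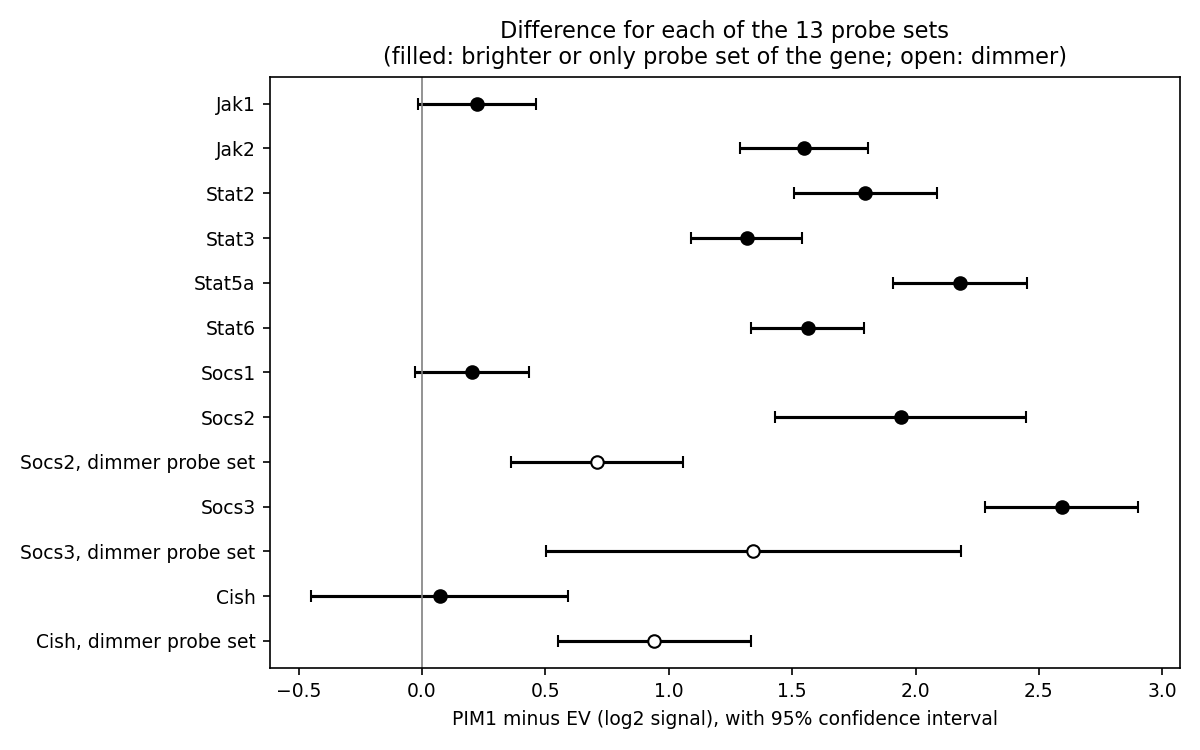
Difference between PIM1 and EV (horizontal axis, log2 signal) with its 95% confidence interval for each of the 13 probe sets, from a fit over all 41345 probe sets. Filled points are the brighter or only probe set of a gene, and open points are the dimmer second probe sets of Socs2, Socs3 and Cish. The 2 probe sets of Cish differ most in call, with 0.07 for the brighter and 0.94 for the dimmer one.

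The feedback inhibitors split into Socs3 and Socs2, which rose, and Socs1 and Cish, which were not called. Socs3, the main inhibitor of gp130 and leptin receptor signalling, had signals of 7.86, 7.83 and 7.59 in PIM1, against 5.28, 5.01 and 5.21 in EV. It had the largest difference of the 10 genes, 2.59 (standard error 0.122, adjusted p = 3.61e-06), a 6.03-fold rise. A dimmer second probe set of Socs3 read 4.83, 5.31 and 4.21 in PIM1 and 3.52, 3.93 and 2.87 in EV. It spread more within each group but did not overlap between them, and its difference of 1.34 passed over all probe sets (adjusted p = 0.0456). Averaging both Socs3 probe sets gave a difference of 1.97.

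Socs2, an inhibitor best known for restraining growth hormone signalling, had signals of 7.97, 7.88 and 8.01 in PIM1 and 5.70, 6.50 and 5.84 in EV. The second EV array was the highest of the EV group and still lay more than a log2 unit below every PIM1 array. The difference was 1.94 (standard error 0.197, adjusted p = 2.25e-04), or 3.84-fold, and it was 2.18 without EV replicate 2, 1.78 without EV replicate 1 and 1.85 without EV replicate 3. The dimmer Socs2 probe set read 4.50, 4.34 and 4.68 in PIM1 and 3.58, 3.92 and 3.89 in EV. Its difference of 0.71 passed over all probe sets (adjusted p = 0.0197) and had the same direction. Averaging both Socs2 probe sets gave a difference of 1.32 (adjusted p = 4.44e-04).

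Socs1, which blocks JAK activity directly and limits interferon signalling, had signals of 5.45, 5.48 and 5.56 in PIM1 and 5.27, 5.30 and 5.32 in EV. The groups did not overlap, yet the Socs1 difference of 0.20 (95% confidence interval -0.0093 to 0.41) was not called (adjusted p = 0.147). The interval does not reach the difference of Socs3 or Socs2. Cish, the founding member of the SOCS family and a STAT5 target, had signals of 4.22, 4.20 and 3.45 in PIM1 and 3.81, 3.87 and 3.98 in EV with its brighter probe set. The third PIM1 array was the lowest of all 6, and the difference of 0.07 (95% confidence interval -0.39 to 0.54, adjusted p = 0.829) was not called. The other Cish probe set read 3.62, 3.88 and 3.96 in PIM1 against 3.16, 2.77 and 2.71 in EV, with no overlap. That probe set differed by 0.94 and passed over all probe sets (adjusted p = 0.0105). Averaging both Cish probe sets gave a difference of 0.51 that passed (adjusted p = 0.0146). The direction of the brighter Cish probe set turned to -0.06 without PIM1 replicate 1 and -0.05 without PIM1 replicate 2, and the difference was 0.32 without PIM1 replicate 3. Both Cish probe sets lay close to the array medians, and whether Cish changed depended on which was read.

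**Figure D3:**
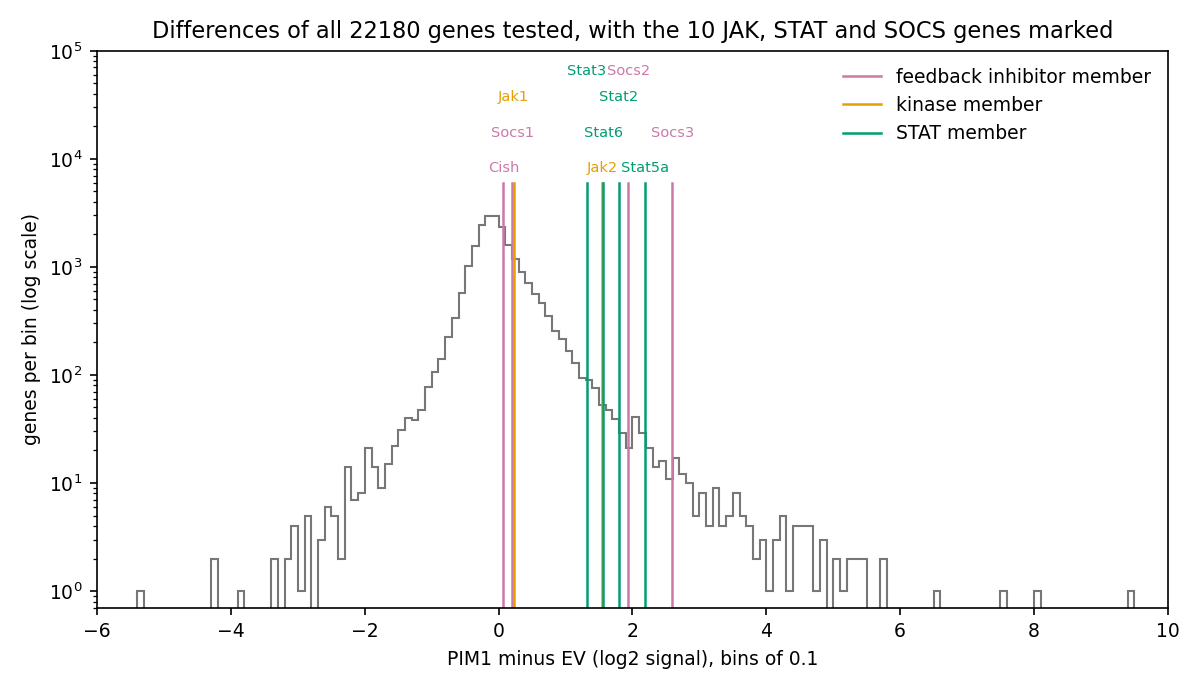
Number of genes (vertical axis, log scale) by difference between PIM1 and EV (horizontal axis, log2 signal, bins of 0.1) for all 22180 genes tested, with the 10 genes marked by coloured lines. Jak1, Socs1 and Cish stand within the bulk of all genes, and the other 7 stand to the right of it, between 1.32 and 2.59.

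By the RefSeq annotation Stat3, Stat5a and Socs3 are on chromosome 11, Stat2, Stat6 and Socs2 on chromosome 10, Jak1 on 4, Cish on 9, Socs1 on 16 and Jak2 on 19. Stat5b, Stat5a and Stat3 follow one another directly on chromosome 11, and all 3 rose, by 1.13, 2.18 and 1.32. The nearest protein-coding genes on either side, looked up after the values of the STATs were seen, did not share one direction. Ghdc, beside Stat5b, rose by 0.64 (limma adjusted p = 0.00705), whereas Cavin1, a caveolar coat protein gene beside Stat3, fell by 0.50 (adjusted p = 0.0101). The genes next to Stat2 (Apof at -0.33 and Il23a at 0.13) and those next to Stat6 (Lrp1 at 0.11 and Nab2 at 0.32) were not called.

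The promoter windows of the members were searched for the sequences that STAT proteins are known to bind. RefSeq windows on assembly GRCm38.p6, from 250 bases before to 50 bases after an annotated start, were at hand for 9 of the 10 genes, with 2 windows for Stat5a. The gamma-activated site of STAT dimers was searched as TTCNNNGAA, its longer form preferred by STAT6 as TTCNNNNGAA, and the core of the interferon-stimulated response element bound by ISGF3 and by interferon regulatory factors as GAAANNGAAA, all on both strands. Of all 32851 windows, 8.3% held the first, 6.95% the second and 3.44% the third. Of the 9 genes with a window 4 held at least 1 of the 3 motifs, compared with 17.3% of all windows. Those 4 were Stat2 and Socs3, among 6 such genes that were called, and Socs1 and Cish, among 3 that were not. They are shown because they hold a match, with the matches in capitals, 5′ to 3′ on the strand of the gene.
Stat2, chr10:128270248-128270497, plus strand: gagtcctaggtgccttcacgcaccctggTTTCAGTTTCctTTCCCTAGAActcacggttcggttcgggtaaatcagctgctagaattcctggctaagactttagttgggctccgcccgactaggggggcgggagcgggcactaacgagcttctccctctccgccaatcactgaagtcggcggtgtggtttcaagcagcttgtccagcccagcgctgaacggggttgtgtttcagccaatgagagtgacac
Socs3, chr11:117969367-117969616, minus strand: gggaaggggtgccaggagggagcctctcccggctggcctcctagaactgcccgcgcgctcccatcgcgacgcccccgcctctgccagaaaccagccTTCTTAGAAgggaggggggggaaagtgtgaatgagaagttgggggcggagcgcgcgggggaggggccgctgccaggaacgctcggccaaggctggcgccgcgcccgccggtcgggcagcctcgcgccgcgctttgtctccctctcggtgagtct
Socs1, chr16:10785537-10785786, minus strand: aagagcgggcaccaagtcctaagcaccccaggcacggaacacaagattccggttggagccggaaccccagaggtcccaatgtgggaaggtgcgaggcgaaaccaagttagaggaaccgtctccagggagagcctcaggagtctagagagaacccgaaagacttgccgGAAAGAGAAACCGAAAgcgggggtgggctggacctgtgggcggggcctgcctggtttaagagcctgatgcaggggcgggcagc
Cish, chr9:107296429-107296678, plus strand: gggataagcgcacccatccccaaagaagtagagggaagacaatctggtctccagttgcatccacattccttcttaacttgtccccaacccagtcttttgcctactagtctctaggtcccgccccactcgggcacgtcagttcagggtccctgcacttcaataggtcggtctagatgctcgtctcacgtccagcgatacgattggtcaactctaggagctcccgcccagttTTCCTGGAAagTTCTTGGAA
The Stat2 window holds the response element core on the opposite strand, as TTTCAGTTTC at bases -222 to -213 from the start, and the longer site TTCCCTAGAA at -210 to -201. The Socs3 window holds TTCTTAGAA at -154 to -146. The Socs1 window holds 2 response element cores that overlap, GAAAGAGAAA and GAAACCGAAA, between bases -83 and -68. The Cish window holds 2 gamma-activated sites, TTCCTGGAA and TTCTTGGAA, at the start itself, in bases 1 to 9 and 12 to 20. Matches were thus present in windows of genes that rose and of genes that were not called, and they are letters in a sequence, not measured binding.

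The remaining family members gave a mixed picture. Limma called 33.3% of the other JAKs and STATs and 25% of the other SOCS genes, against 27.0% of all genes tested. Stat5b, the close relative of Stat5a, had signals of 6.82, 6.89 and 6.76 in PIM1 and 5.91, 5.63 and 5.53 in EV, without overlap. It rose by 1.13 (adjusted p = 3.24e-04). Stat5a and Stat5b are near-identical over much of their coding sequence, and no source used here gives the positions of the probes, so their signals may be shared in part. Tyk2, the kinase of interferon alpha and interleukin-12 receptors, differed by 0.21 (adjusted p = 0.233), and Stat4, a lymphoid STAT at a signal near 2.1 in both groups, by 0.05 (adjusted p = 0.886). Jak3 had no probe set of its own and was not analysed here. Of the other SOCS genes, Socs5 rose by 0.49 (adjusted p = 0.00905). Socs4 and Socs7 differed by -0.37 and -0.47 and missed the threshold (adjusted p = 0.0545 and 0.0628), and Socs6 differed by 0.01 (adjusted p = 0.970). Both Socs4 and Socs7 passed as lower with a trended and robust variance, after quantile normalization and after cyclic loess, so 2 of these 4 genes fell under those settings. With the replicate block, without EV replicate 2 or without PIM1 replicate 3, 1 of the 4 fell.

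**Figure D4:**
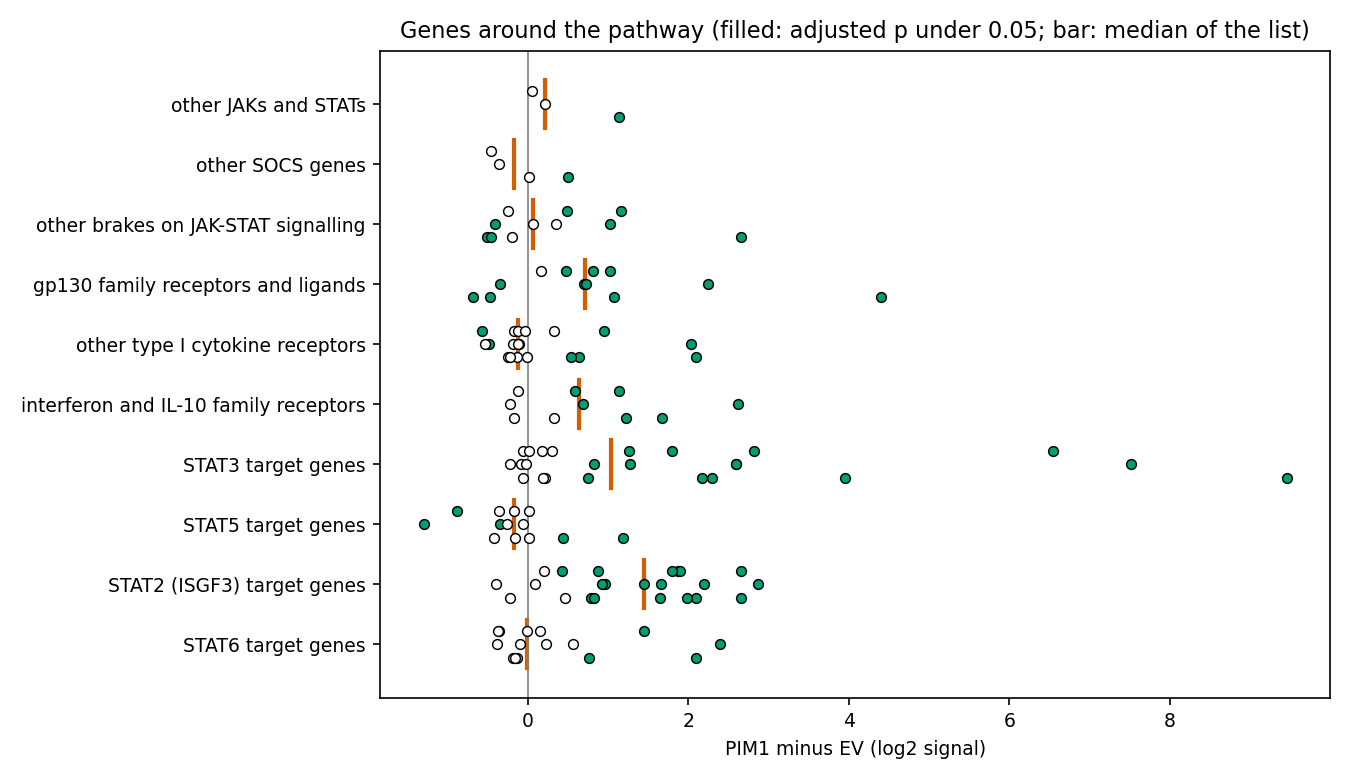
Difference between PIM1 and EV (horizontal axis, log2 signal) of the measured genes in 10 lists around the pathway. Filled points passed adjusted p under 0.05 and the orange bar is the median of each list. It is 1.45 for ISGF3 targets, 1.04 for STAT3 targets and -0.18 for STAT5 targets. Several STAT5 targets and most STAT6 targets had mean signals below the array medians in both groups.

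Genes for cytokines and receptors upstream of these kinases also differed. Limma called 91.7% of the gp130 family genes and 60% of the interferon and interleukin-10 family receptor genes. For the other type I cytokine receptor genes the share was 36.8%, and for all genes tested 27.0%. Of 12 measured genes of the gp130 family of ligands and receptors, 8 rose and 3 fell, with a median difference of 0.71. Those that fell were Cntfr (3.68 in PIM1 and 4.37 in EV), Il11 (2.95 and 3.43) and Osm (2.99 and 3.35). The means of Il11 and Osm lay below the array medians in both groups. The count that fell was 1 with the replicate block, with every probe set tested, after median centring, cyclic loess or quantile normalization, and without any 1 array other than EV replicate 2. Il6, the cytokine that signals through gp130 to STAT3, had signals of 6.58, 6.64 and 6.56 in PIM1, against 2.06, 2.18 and 2.32 in EV, a difference of 4.41 (adjusted p = 1.60e-07). The genes of the oncostatin M, leukaemia inhibitory factor and interleukin-6 receptor chains, Osmr, Lifr and Il6ra, rose by 2.25, 1.02 and 1.08. Of 10 measured interferon and interleukin-10 family receptor genes, 6 rose and 0 fell, with a median of 0.63, and 0 were lower at an unadjusted p under 0.05 in limma. Ifnar2 and Ifngr2, chains of the type I and type II interferon receptors, rose by 1.68 and 1.13, the shared interleukin-10 receptor chain gene Il10rb by 1.22 and the interleukin-20 receptor gene Il20ra by 2.62. Among 19 other type I cytokine receptor genes, 5 rose and 2 fell, and the median was -0.13. The chains of the interleukin-4 and interleukin-13 receptor, Il4ra and Il13ra1, which signal through Stat6, rose by 2.10 and 2.03. The interleukin-15 receptor gene Il15ra rose by 0.95 and the growth hormone receptor gene Ghr by 0.63.

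Other brakes on the pathway moved in both directions. Limma called 63.6% of these brakes, against 27.0% of all genes tested. Of 11 measured genes, for phosphatases, PIAS proteins and adaptors together with Usp18 and Cbl, 4 rose and 3 fell, with a median of 0.06. Usp18, which restrains the interferon receptor, had signals of 5.99, 6.14 and 6.01 in PIM1 and 3.57, 3.10 and 3.50 in EV, and it rose by 2.66 (adjusted p = 6.19e-06). Ptpn1, a phosphatase that acts on JAK2 and TYK2, rose by 1.16 and Pias4, a SUMO ligase, by 1.02. Sh2b3, an adaptor that restrains JAK2, fell by 0.51 (adjusted p = 0.0138). The others that fell were Cbl, with a difference of -0.41, and Ptpn6, with -0.46. Without PIM1 replicate 2 the counts were 3 higher and 0 lower, after median centring they were 5 higher and 1 lower, and after quantile normalization 3 higher and 5 lower.

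Known target genes of the STATs differed by factor in the share called. Limma called 58.3% of STAT3, 78.3% of ISGF3, 26.7% of STAT6 and 38.5% of STAT5 targets. Of all genes tested it called 27.0%, with 16.1% higher and 10.9% lower. The STAT6 share was thus close to that of all genes. Of 24 measured STAT3 targets 14 rose and 0 fell, with a median of 1.04. The 4 with the smallest p were the acute-phase and inflammatory genes Saa3 (9.46), Lcn2 (7.52), Lbp (6.54) and Cebpb (2.29). Of 23 measured targets of the STAT2 complex ISGF3, 18 rose and 0 fell, and the median was 1.45. The 4 with the smallest p were the antiviral gene Oasl2 (2.65), the chemokine gene Cxcl10 (2.19), Usp18 (2.66) and Rtp4 (2.09). Of 15 STAT6 targets 4 rose and 0 fell, and their median of -0.02 was close to that of all genes. The STAT6 targets that rose were Il4ra itself (2.10), the transglutaminase gene Tgm2 (2.40), the eotaxin gene Ccl11 (1.44) and Pparg (0.76). Of 13 STAT5 targets 2 rose and 3 fell, with a median of -0.18. The STAT5 targets Csn1s1, Csn2, Csn3, Igfals, Elf5 and Osm had means below the array medians in both groups, where signals hold an unknown share of background. So did most STAT6 targets and, of the STAT3 and ISGF3 targets, A2m, Fgl1, Fgg, Mx1 and Mx2. Osm, among the STAT5 targets that fell, differed by -0.35 (limma adjusted p = 0.0484). Ccnd2, a cyclin gene, rose by 1.19 and the repressor gene Bcl6 by 0.43, whereas Igf1, the growth factor that growth hormone induces, fell by 1.30 and the stress gene Gadd45g by 0.88. Igf1 had signals of 3.50, 3.93 and 3.81 in PIM1, against 5.12, 5.01 and 5.02 in EV. Only 1 STAT5 target passed as higher after quantile normalization and without PIM1 replicate 1, 2 or 3. At an unadjusted p under 0.05 limma had 0 STAT3 and 0 ISGF3 targets lower and 1 STAT6 target. Some targets stand in several lists, and these counts do not measure which factor acted on a gene.

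Of the cell type marker lists, only that of fibroblasts mostly rose. Of 12 fibroblast markers 9 rose and 2 fell, with a median of 1.10. Their summed linear signal was 9634 to 9700 on the PIM1 arrays and 3682 to 3838 on the EV arrays. Among 12 markers of macrophages and other leukocytes, 1 rose and 1 fell, 11 had a difference below 0, and the median was -0.24. Ptprc, the pan-leukocyte marker, read 1.87 in PIM1 and 2.07 in EV. Their summed signal was 282 to 334 in PIM1 and 175 to 190 in EV, the member that rose was Cd14 (7.73 in PIM1 and 5.53 in EV), and the one that fell was Csf1r (3.86 in PIM1 and 5.21 in EV). Of 12 endothelial markers limma called 0, and at an unadjusted p under 0.05 0 were higher and 1 (Cldn5) was lower, with a summed signal of 98.6 to 116 in PIM1 and 106 to 111 in EV. Of 10 luminal markers 2 rose and 2 fell (summed signal 744 to 856 in PIM1 and 910 to 983 in EV). Of 11 basal markers 0 rose and 3 fell (534 to 562 in PIM1 and 951 to 968 in EV). The share called was 91.7% of fibroblast, 16.7% of leukocyte, 40% of luminal and 27.3% of basal markers, against 27.0% of all genes tested. The part of a change in cell makeup in the JAK, STAT and SOCS differences was not tested, and in bulk RNA a change in the share of cells cannot be told apart from a change in RNA per cell.

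The genes whose pattern was most like that of Socs3, the member with the largest difference, were Plxnd1, a semaphorin receptor gene, Usp18, and Sod2, the gene of the mitochondrial superoxide dismutase. Over the 6 arrays, with each gene taken relative to its EV mean, their root mean square distance to Socs3 was 0.105, 0.119 and 0.128 on the log2 scale. Plxnd1 differed by 2.59, Usp18 by 2.66 and Sod2 by 2.66 between PIM1 and EV. These genes were picked for closeness to Socs3 on this scale, so differences near that of Socs3 follow from the choice.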

How the data were processed

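Values are the log2 signals the authors deposited, 1 per probe set and array, and their log base was inferred from a range of 0.34 to 13.0. The submitters' processing notes name Affymetrix Expression Console without a version, and no source used here gives the background correction, summarization or normalization. Groups came from the sample titles, with 3 arrays each, and this number limits the precision. Gene names came from the platform annotation. Of 41345 probe sets 23521 had 1 symbol, 1814 several and 16010 none, and 23328 of the first kind matched RefSeq by Entrez identifier. The brightest probe set stood for each of 22180 genes.

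PIM1 was compared with EV by limma 3.58.1 in R 4.3.3 (lmFit, eBayes, two-sided, Benjamini-Hochberg over all genes, threshold 0.05), and second probe sets in a fit over all 41345. The fit was tested on simulated data. The text names all 10 genes and all other JAK, STAT and SOCS genes measured. It also names the 4 genes with the smallest p in each of the other lists (fewer where they repeat), the 3 genes most like Socs3, and markers. Some further list genes are named for their low signal, for their fall or because they were not called. The 10 genes and the lists were chosen with earlier results of these data known, so their counts are no independent support. Same-numbered arrays did not deviate together (correlations of deviations from the group mean of 0.06, -0.03 and 0.01), so the fit had no pairing. Alternatives were other normalizations, variance models, probe set rules and filters, a replicate block, and leaving out each array. An item of the pathway is not reported here.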

Additional observations from a re-analysis of the deposited data

How the results depend on the processing

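All 14 alternatives kept the direction and the call of Jak2, Stat2, Stat3, Stat5a, Stat6, Socs2 and Socs3. Their differences ranged from 1.28 to 1.41 for Stat3 and from 1.97 to 2.69 for Socs3, the lowest with probe sets averaged. The number of the 10 genes called was 7 or 8 under every alternative. It was 8 with a trended and robust variance, median centring or the brighter 11090 genes alone, by the addition of Jak1, and with probe sets averaged, by the addition of Cish. The brighter Cish probe set reversed to -0.058 without PIM1 replicate 1 and -0.051 without PIM1 replicate 2, neither passing, and was 0.325 without PIM1 replicate 3. Socs1 was not called under any of the 14, with an adjusted p between 0.0530 and 0.569. Over all genes the count was 5995, against 4167 to 5369 without 1 array and 4392 when every probe set was tested. With the replicate block 5321 genes and 7 of the 10 were called, and no call among the 10 changed. The list counts were recomputed under 13 alternatives chosen after seeing the data. Signals near the array median limit what can be said of Cish.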
